A study of Mus musculus with 4 samples.

Results

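Cdx1, Cdx2, Hnf4a, Hnf4g, Klf4, Klf5, Elf3 and Sox9 encode transcription factors that keep intestinal epithelial cells what they are. These 8 genes, of 27342 named on the array, were found by their gene name among the array's spots and have 14 probes between them. They were chosen by a readout of the same data, in which Cdx2 had been seen higher in Rspo3 KO colon, so their values in that comparison are a description and carry no test. In the first experiment, each of 2 arrays set RNA from 1 Rspo3 KO mouse (Myh11CreErt2/Rspo3 fl/fl) against RNA from 1 control mouse (Myh11CreErt2/Rspo3 +/+, labelled Rspo3++). All of these mice were C57BL/6 males of 6 to 8 weeks, carried the Myh11CreErt2 transgene and received tamoxifen at 4 mg per 25 g body weight, and the RNA was taken 2 weeks later from tissue that the labels call distal colon. The Cre is driven by the Myh11 promoter, which is active in smooth muscle and myofibroblasts, so Rspo3 is deleted in those cells and not in the epithelium or in other stromal cells. In the second experiment, epithelial cells (ESA+) of C57BL/6 Axin2CreErt2/Rosa26-tdTomato mice, of the same sex, age and tamoxifen dose, were sorted 24 h after tamoxifen into tdTomato+ (Axin2+) and tdTomato- (Axin2-) cells, and RNA pooled from 3 mice was hybridized on 2 arrays with reversed dyes. Those arrays are technical repeats of 1 pool per side, so no spread between mice is known there.

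CDX1 and CDX2 are the caudal-type homeobox factors of the gut. CDX2 specifies intestine rather than stomach in the embryo and is still needed in the adult epithelium, where it binds together with HNF4A at the enhancers of enterocyte genes. HNF4A and HNF4G are closely related nuclear receptors that drive enterocyte genes. KLF4 marks differentiating, non-dividing cells of the upper crypt and is needed for goblet cells, whereas KLF5 is found in dividing crypt cells. ELF3 is an epithelial ETS factor linked to differentiation, and SOX9 is a Wnt-dependent HMG-box factor of the crypt base.

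Of the 4 members past 1.5-fold in either comparison, Cdx2 and Elf3 in the colon and Klf4 and Sox9 in the sorted cells, the promoters of the first 3 are shown to give the sequence in front of these genes. RefSeq (GRCm38.p6) held promoters for 4 of the 8 members, Cdx2, Elf3, Hnf4a and Klf4. The 250 bases before the start site are written on the strand of the gene, and capitals mark the letters CACCC or their reverse complement GGGTG, a core that KLF factors bind.
Cdx2, chr5:147307250-147307499, minus strand: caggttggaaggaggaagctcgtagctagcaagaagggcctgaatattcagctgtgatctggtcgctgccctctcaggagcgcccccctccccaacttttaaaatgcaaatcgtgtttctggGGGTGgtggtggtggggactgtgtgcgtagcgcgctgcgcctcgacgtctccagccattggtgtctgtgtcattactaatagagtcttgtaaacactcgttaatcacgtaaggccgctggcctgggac
Elf3, chr1:135258473-135258722, minus strand: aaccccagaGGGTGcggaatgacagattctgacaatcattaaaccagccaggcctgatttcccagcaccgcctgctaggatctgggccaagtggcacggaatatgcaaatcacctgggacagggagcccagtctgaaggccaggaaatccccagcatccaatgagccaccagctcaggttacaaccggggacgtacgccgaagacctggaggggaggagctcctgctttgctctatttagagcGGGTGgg
Klf4, chr4:55532476-55532725, minus strand: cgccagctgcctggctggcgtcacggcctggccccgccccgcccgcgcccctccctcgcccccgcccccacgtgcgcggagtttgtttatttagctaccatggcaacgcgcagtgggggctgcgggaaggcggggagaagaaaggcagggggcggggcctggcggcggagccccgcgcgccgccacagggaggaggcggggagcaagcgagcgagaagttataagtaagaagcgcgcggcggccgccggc
CACCC was found 1 time before Cdx2, 2 times before Elf3 and not before Klf4, and 52% of 32851 RefSeq promoter windows of this length hold it on either strand. CTTTGA, the core that TCF/LEF factors bind, and TTTATG, a core that CDX factors bind, were searched on both strands and were not found in any of the 5 member promoters. They occur in 13.8% and 10.8% of all such windows, and a match or its absence is a description of these letters only.

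Some probes read the coding part of their transcript, and these are given because the probes of 1 gene did not always read alike. They are printed as the array files list them, 5′ to 3′, and no base is marked.
Klf5, probe 1: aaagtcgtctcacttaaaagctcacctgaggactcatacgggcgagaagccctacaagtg
Hnf4a, probe 2: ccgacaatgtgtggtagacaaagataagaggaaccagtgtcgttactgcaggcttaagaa
Sox9, probe 3: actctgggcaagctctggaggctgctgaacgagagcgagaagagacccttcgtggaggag
The Klf5 probe spans chr14:99702656-99712388 (mm9), which is 9733 bases for a 60-base probe, so it crosses an intron and reads spliced RNA. The other Klf5 probe, listed from a cDNA clone, lies at chr14:99704137-99704196, inside that spliced-out stretch. The Sox9 probe spans chr11:112644310-112645162 and also crosses an intron, while the Hnf4a probe lies in 1 piece at chr2:163378302-163378361. Cdx2 has 1 probe, at chr5:148112547-148112606 (mm9), so its value rests on 1 spot per array. The same holds for Cdx1, Elf3 and Klf4, which also have 1 probe each, printed in 1 spot.

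Several facts of the arrays bear on every value. Ratios are on the log2 scale, with Rspo3 KO over control or Axin2+ over Axin2-, and levels are log2 intensities of 1 probe, which are not set against those of another probe. Across 15221 measured genes, the ratios of the 2 colon pairs had a Pearson r of 0.03 over genes, which are not independent replicates, and 44.1% of genes had the same sign in both pairs. Over 15801 genes, the 2 arrays of sorted cells had an r of 0.92. The 2 Rspo3 probes were near background and could not check the deletion. The first had ratios of 0.10 and 0.17 and stood clear of background in pair 2 only, and the second did so on no array. Lgr5, the crypt base stem cell receptor, was well above background in both control RNAs and in neither Rspo3 KO RNA. Its ratios were -1.27 and -2.61 (adjusted p = 0.0622, limma over all genes). By levels averaged over the 2 pairs, Lgr5 was at least 3.81-fold lower in Rspo3 KO. Axin2 read -0.45 and -0.26 in the colon pairs, within 1.5-fold, and 1.35 and 1.295 on the sorted-cell arrays.

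Cdx2 stood apart from the other members in the colon. Its level was 12.58 and 12.34 in the Rspo3 KO mice and 10.25 and 10.43 in their controls. Both Rspo3 KO values lay above both control values, in a gene chosen for being higher here. The share of all genes that separate in this way was not counted, so nothing is read from it. The log2 ratio was 2.33 in pair 1 and 1.91 in pair 2, a mean of 2.12 ± 0.30 (SD, n = 2), or 4.35-fold. This was the 10th highest mean ratio of the 15221 genes, in a comparison where the Cdx2 value had served to choose the gene. Because whole tissue was measured, more cells with Cdx2 RNA and more Cdx2 RNA per cell cannot be told apart. Its paralog Cdx1 did not share this. Cdx1 had ratios of 0.03 and -0.66, with levels of 9.07 and 9.003 in Rspo3 KO and 9.04 and 9.66 in the controls. The pairs differed in sign, and 1 control value lay between the Rspo3 KO values.

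**Figure D1:**
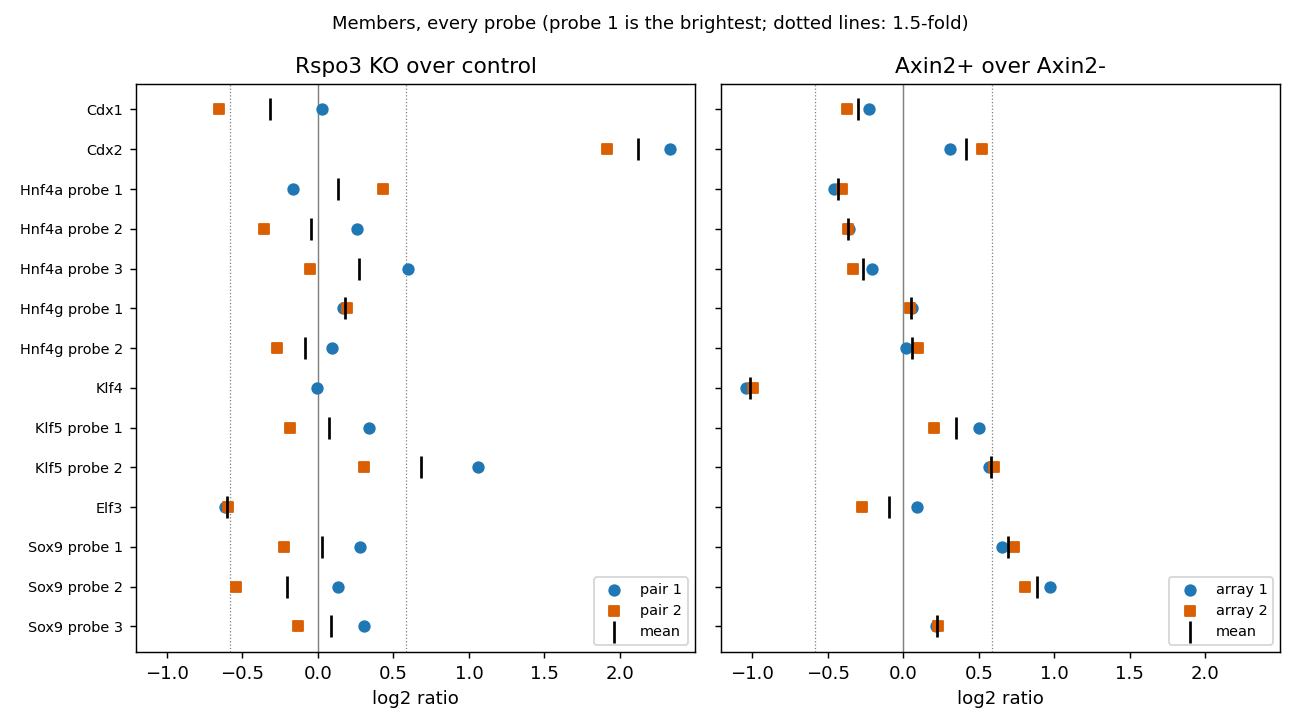
Log2 ratios of all 14 probes of the 8 members in Rspo3 KO over control colon (left, 2 mouse pairs) and in Axin2+ over Axin2- cells (right, 2 dye-swapped arrays of 1 pool per side); bars are means and dotted lines mark 1.5-fold. Cdx2 lies near 2 in both colon pairs, Elf3 near -0.60, and most other probes straddle 0 in the colon while their 2 sorted-cell values lie close together.

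Elf3 was the other member past 1.5-fold. Its level was 12.43 and 11.85 in the Rspo3 KO mice and 13.04 and 12.45 in the controls. The higher Rspo3 KO value, from pair 1, lay just below the lower control, from pair 2. How many of all genes separate in this way was not counted, so nothing is read from it. The ratios were -0.61 and -0.60, with a mean of -0.60 ± 0.01 (SD, n = 2), just past the threshold of 0.58. With median centring in place of loess the mean was -0.55, which is not past 1.5-fold. In all, 2 of 7 measured members were past 1.5-fold with 1 sign in both pairs, against 4.31% of all measured genes (1.83% higher, 2.48% lower). The next member outside the threshold was Cdx1, at a mean of -0.32. Since the members were picked on this contrast, nothing is read from the count. In the same pairs the median mean ratio was -1.91 over 6 measured B cell markers and -0.88 over 8 crypt base stem cell markers, and the part of such cells in the Cdx2 and Elf3 ratios was not tested.

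Of the remaining measured members, only Hnf4g had the same sign in both pairs with its brightest probe, and Klf4 could be read in 1 pair. The brightest Hnf4a probe read -0.17 and 0.43, the second 0.26 and -0.36, and the third 0.60 and -0.06. Its 3 probes differed in sign within a pair as well as between pairs. Hnf4g read 0.17 and 0.19 with its brighter probe, and its other probe was not well above background on any array. The Klf5 probe that crosses the intron read 0.34 and -0.18, with levels of 12.72 and 12.84 in Rspo3 KO and 12.38 and 13.02 in the controls. The Klf5 probe inside the spliced-out stretch read 1.06 and 0.31, a mean of 0.69 ± 0.53 (SD, n = 2). Klf5 is thus past 1.5-fold by one probe and near 0 by the brighter one. Sox9 read 0.28 and -0.23 with its brightest probe and 0.13 and -0.54 with the probe printed in 10 spots. The third Sox9 probe, which crosses the intron, read 0.31 and -0.13 and was not well above background in pair 1. Klf4 could be read in pair 1 only, at -0.01, with levels of 16.09 in Rspo3 KO and 16.10 in the control. Its single spot in pair 2 was called an outlier by the extraction software. With that spot kept, pair 2 read 0.17 and the mean was 0.08.

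**Figure D2:**
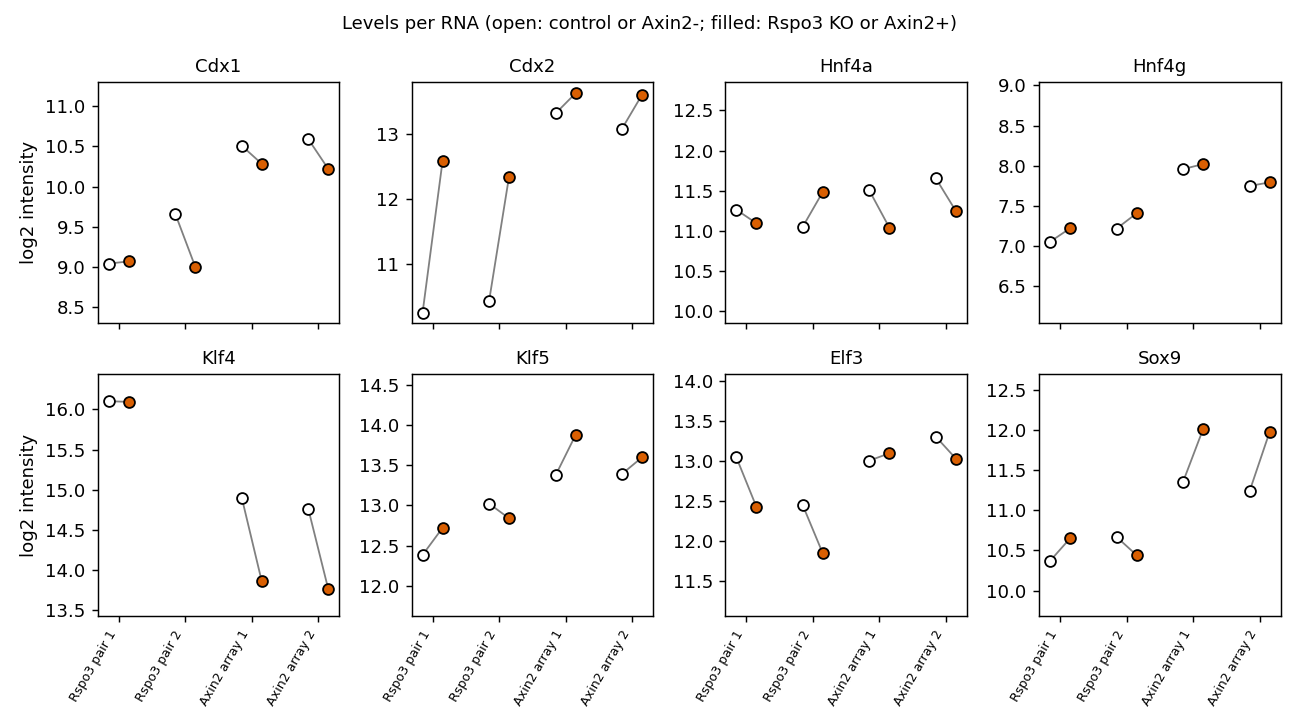
Log2 intensity of each member's brightest probe in every RNA, with the 2 channels of an array joined by a line; open points are control or Axin2- RNA and filled points Rspo3 KO or Axin2+ RNA, and each panel has its own axis range. The Cdx2 lines climb by 2.33 and 1.91 in the colon pairs and by 0.31 and 0.52 on the sorted-cell arrays, and Klf4 has no point for pair 2.

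Sorted cells gave values that differed little between the 2 arrays. Klf4 was lower in Axin2+ cells on both arrays, at -1.04 and -0.997, a mean of -1.02 ± 0.03 (SD over 2 dye-swapped arrays), or 2.02-fold. Its level was 13.86 and 13.77 in Axin2+ and 14.90 and 14.76 in Axin2- RNA. Sox9 was higher, at 0.65 and 0.73 with its brightest probe, a mean of 0.69 ± 0.06 or 1.62-fold. The 10-spot Sox9 probe read 0.97 and 0.80 and the dim intron-crossing probe 0.22 and 0.23, so that all 3 were higher by different amounts. Klf4 and Sox9 were the only 2 of 8 members past 1.5-fold with the brightest probe, against 14.9% of all measured genes (7.89% higher, 6.97% lower). The share of members, 2 of 8, is a description of 8 genes. Median centring moved Sox9 to 0.53, inside 1.5-fold, and Klf4 to -1.38.

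The other members differed by less. Klf5 was higher by both probes, at 0.50 and 0.21 with the first and 0.57 and 0.60 with the second, whose mean of 0.58 lies at the threshold. Cdx2 read 0.31 and 0.52, with levels of 13.63 and 13.60 in Axin2+ and 13.32 and 13.08 in Axin2- RNA, and median centring brought its mean from 0.41 to 0.12. Cdx1 read -0.22 and -0.37. The paralogs thus lay on opposite sides of 0 on both arrays. All 3 Hnf4a probes were lower in Axin2+ cells, the brightest at -0.46 and -0.40, the second at -0.36 and -0.37 and the third at -0.20 and -0.33. By the brightest probe, Hnf4a was nearest to 1.5-fold among the members not past it, with a mean of -0.43. Median centring moved that mean to -0.58, still within 1.5-fold. Hnf4g read 0.06 and 0.04, and Elf3 read 0.09 and -0.27, so that its arrays differed in sign.

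**Figure D3:**
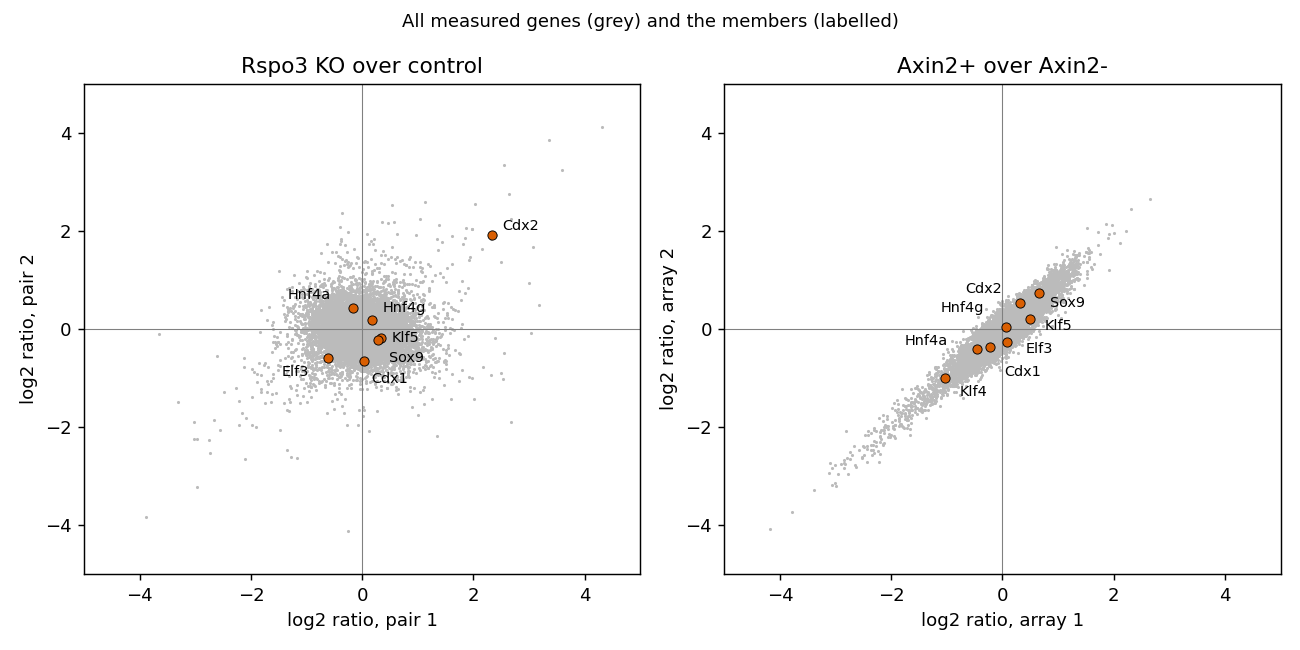
Log2 ratio on the first against the second array for every measured gene (grey), with the members labelled, in Rspo3 KO over control (left, 7 members) and Axin2+ over Axin2- (right, 8 members). Grey points form a round cloud in the colon (r of 0.03), with Cdx2 far out in the upper right, and a narrow diagonal in the sorted cells (r of 0.92), with Klf4 at its lower and Sox9 at its upper part.

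The genes most like Cdx2 were sought over both experiments. By distance over the 4 log2 ratios, among 13402 genes measured in both experiments, the nearest was a cDNA without a gene symbol, at a distance of 0.56. Then came Isoc1 (0.73), Dusp16 (0.78), Ddah1 (0.86) and Gdpd3 (0.88). Isoc1 read 1.94 and 1.47 in the colon pairs, Dusp16, a phosphatase of MAP kinases, 2.67 and 2.24, and Ddah1, which breaks down methylated arginines, 1.97 and 2.03. Gdpd3 read 2.41 and 1.91. All of these were chosen for being near Cdx2, and in the sorted cells Dusp16 and Gdpd3 stayed between -0.23 and 0.04. Genes beside Cdx2 on the chromosome in RefSeq order were picked after the Cdx2 value was seen. Gsx1 read 0.02 and -0.01, Polr1d 0.14 and 0.31, Lnx2 0.05 and 0.95, Flt1 0.15 and 0.01, and Pan3 0.89 and -0.56, while Pdx1, Urad and Flt3 were not measured in the colon.

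Of 12 genes described in textbooks as CDX2 targets, 9 were measured in the colon. None was higher past 1.5-fold (1.83% of all genes were) and 1 was lower (2.48% of all genes were). The median of their mean ratios was 0.12, beside -0.01 over all genes. Gucy2c, the guanylin receptor, read 0.27 and 0.32, Cdh17, the intestinal cadherin, 0.23 and 0.07, and Muc2, the goblet cell mucin, 0.37 and -0.20. Lct, which encodes lactase, read -0.35 and -1.57 (adjusted p = 0.64, limma). None of the 9 passed the limma test at an adjusted p of 0.05, which 0.283% of all genes did. With outlier spots kept, Car1, a colonocyte carbonic anhydrase, was measured as well, at 0.79 and 0.96, and was the only 1 of 11 higher. Among sorted cells, 3 of 11 were lower and 1 was higher in Axin2+ cells, beside 6.97% and 7.89% of all genes. Car1 read -1.82 and -1.95, Mep1a, a brush border protease, -1.32 and -1.47, and Lgals4, a galectin, -0.72 and -0.70. Cftr, the chloride channel of crypts, read 1.02 and 1.07.

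HNF4 targets had a colon median of -0.28 over 7 measured of 12. Ttr, the thyroxine carrier transthyretin, read -0.93 and -0.77 (adjusted p = 0.433, limma), and Cldn15, a claudin that forms sodium pores, -0.61 and -0.66 (adjusted p = 0.804). Neither passed the test, and the other 5 were within 1.5-fold, which 4.31% of all genes were past. In Axin2+ cells, 3 of 8 were lower past 1.5-fold (6.97% of all genes were) and none was higher (7.89% of all genes were). The median of these targets was -0.29 beside -0.003 over all genes. Apob, the apolipoprotein of chylomicrons, read -1.56 and -1.21, and Fabp2, the intestinal fatty acid binding protein, -1.25 and -1.002. Fabp1 was not well above background in Axin2+ RNA and was at least 1.67-fold lower there by levels averaged over the 2 arrays. Of 15 stomach gene names listed, 14 were on the array. Nearly all of these were dim in the colon, where 1, Gkn3, was measured and read -0.35 and -0.31. Of the 14, 7 were measured in the sorted cells and none was past 1.5-fold.

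**Figure D4:**
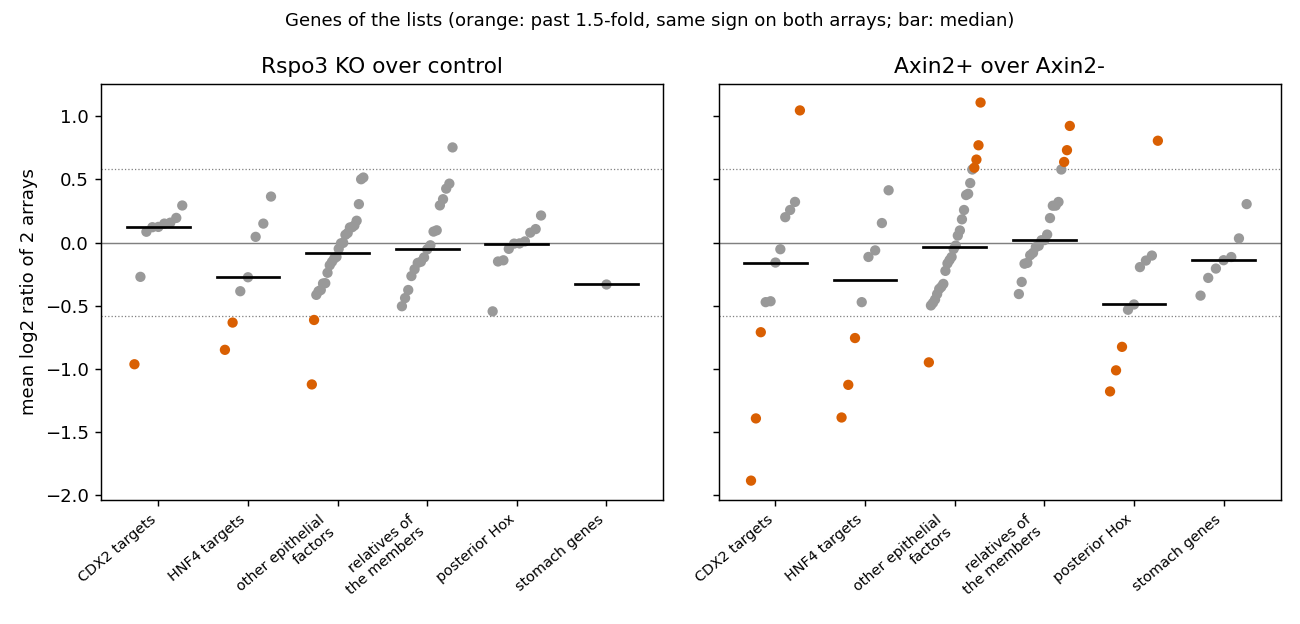
Mean log2 ratio of the 2 arrays for each measured gene of 6 lists, in Rspo3 KO over control (left) and Axin2+ over Axin2- (right); orange marks genes past 1.5-fold with the same sign on both arrays, bars are list medians and dotted lines mark 1.5-fold. In the colon 5 points are orange, all lower, from 3 lists, and in the sorted cells orange points lie on both sides of 0.

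Other transcription factors of the epithelium gave 2 of 24 measured genes past 1.5-fold in the colon, both lower, beside 4.31% of all genes. Spib, an ETS factor of M cells and B cells, read -1.05 and -1.19 (adjusted p = 0.174, limma), and Ascl2, the Wnt-driven factor of Lgr5+ cells, -0.47 and -0.76 (adjusted p = 0.895). Of 26 measured in the sorted cells, 4 were higher and 1 was lower, beside 14.9% of all genes past 1.5-fold. Myb, which is needed for crypt progenitors, read 1.03 and 1.19, Nr5a2, a nuclear receptor of crypt cells, 0.56 and 0.98, Gata6 0.82 and 0.49, and Vdr, the vitamin D receptor, 0.61 and 0.57. Spib read -0.92 and -0.97. The list median was -0.08 in the colon and -0.04 in the sorted cells.

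Of 25 relatives of the members, 17 were measured in the colon and none was past 1.5-fold with 1 sign, against 4.31% of all genes. Klf2 read 2.53 and -1.02, opposite in the 2 pairs. Sorted cells had 3 of 19 higher and none lower in Axin2+ cells, a share near the 14.9% of all genes past 1.5-fold there: Sox4 read 1.04 and 0.80, Klf7 0.75 and 0.71, and Klf6 0.68 and 0.60. Posterior Hox genes, whose expression marks position along the gut, had none of 10 measured of 13 past 1.5-fold in the colon, with a median of -0.01. Hoxa13 read 0.07 and 0.14, Hoxb13 0.09 and -0.19 and Hoxd13 -0.07 and -0.23, all within 1.5-fold. Among sorted cells Hoxb13 read -1.07 and -1.29, Hoxa13 -1.06 and -0.96 and Hoxa10 -0.86 and -0.79, all lower in Axin2+ cells, and Hoxb9 read 0.88 and 0.73.

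Markers of some other cells, chiefly B cells and crypt base stem cells, were lower in Rspo3 KO colon. In that comparison 4.31% of all measured genes were past 1.5-fold. Of 8 B cell markers, 6 were measured and 5 were lower in Rspo3 KO, 3 of them by the limma test (Ms4a1, Ighm and Fcmr), with mean ratios between -2.63 and -0.09. Of 8 crypt base stem cell markers, all were measured and 5 were lower, with mean ratios between -1.94 and 0.26. No measured marker of colon epithelium (5 of 8), fibroblasts (7 of 8), smooth muscle (7 of 8) or endothelium (8 of 8) was past 1.5-fold. The median mean ratio was -0.04 for epithelium, 0.31 for fibroblasts, 0.24 for smooth muscle and 0.10 for endothelium. None of the measured tuft cell (3 of 8), proliferation (8 of 8) or glial and neuronal markers (7 of 8) was past 1.5-fold either. Lower were 1 of 4 T cell and 2 of 6 enteroendocrine markers, and 1 of 8 macrophage markers was higher. Of the epithelial markers, Epcam (-0.07 and 0.04), Cdh1 (0.24 and -0.36), Krt8 (0.10 and -0.17) and Vil1 (-0.18 and 0.49) had opposite signs in the 2 pairs. Cldn3 was lower in both, at -0.18 and -0.15, and Krt18, Krt19 and Cldn7 were not measured. The Cdx2 ratios in these pairs were 2.33 and 1.91 and the Elf3 ratios -0.61 and -0.60. The part of epithelial content in the Cdx2 and Elf3 ratios was not tested. Surface enterocyte and goblet markers could be read for 3 of 8 genes each in the colon, and the rest had an outlier spot or a dim probe on 1 or both arrays. On the sorted-cell arrays, 8 of 8 surface enterocyte markers were lower past 1.5-fold in Axin2+ cells. So were 7 of 8 enteroendocrine, 5 of 8 goblet, 4 of 7 tuft cell, 2 of 8 epithelial and 1 of 3 glial and neuronal markers. Higher were 7 of 8 proliferation and 6 of 8 crypt base stem cell markers, where 14.9% of all genes were past 1.5-fold. Klf4, Hnf4a and Cdx1 had the sign of the surface enterocyte markers on both arrays. Sox9, Klf5, Cdx2 and Hnf4g (0.06 and 0.04) had that of the proliferation markers, and Elf3 differed in sign between arrays. With median centring the mean was 0.12 for Cdx2 and 0.05 for Klf5. The part of cell composition in these ratios was not tested. Epcam was at 0.04 and 0.03 there, and of 8 markers each, 2 of smooth muscle and 2 of fibroblasts were measured. Acta2, a smooth muscle actin, read 0.56 and 0.25 and Actg2 0.27 and -0.10, and the collagen gene Col1a2 read -0.32 and -0.22 and Dcn, a matrix proteoglycan, -0.43 and -0.39, all well above background in both RNAs. The other 12, Myh11 and Pdgfra among them, did not pass the filter.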

How the data were processed

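Colon RNA (Rspo3 KO over control, 2 mouse pairs with reversed dyes) and sorted epithelial cells (Axin2+ over Axin2-, 1 pool per side on 2 arrays of reversed dyes) were measured on dual-color Agilent arrays. The authors deposited for each spot the signal and background intensity of both dyes together with a Cy5 to Cy3 log10 ratio, made with Feature Extraction 11.5.1.1, per the file headers. The series' table repeats these log10 ratios as deposited.

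Intensities were corrected in limma 3.58.1 (R 4.3.3) by normexp with an offset of 50 and normalized by loess within each array. Control spots and between 124 and 510 outlier spots per array were left out, and spots with a background outlier (66 and 6 on the colon arrays) did not enter the background fit. Spots of a probe were averaged, and the brightest probe stood for a gene. A gene counted as measured where 1 or both channels of that probe stood well above background on each of the 2 arrays. Between 53.1% and 60.3% of gene spots per channel were well above background, and precision is limited by how few arrays there are. Of 41174 probes, 27753 were named by accession, 5533 by symbol and 460 by synonym through RefSeq (GRCm38.p6), and 7428 kept the array's name.

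A gene was called past 1.5-fold where its mean log2 ratio exceeded 0.58 in size with 1 sign on both arrays. Genes other than the members were also tested on the colon arrays with limma (lmFit, eBayes) against 0, where p-values were adjusted (Benjamini-Hochberg) over all 15221 genes and called below 0.05. The procedure was run on simulated data, with independent noise and variances drawn from a fit to these arrays. That run checks the code and not the calls made in the colon. The Axin2 arrays hold 1 pool per side and were not tested. Named were the members with every probe, at most 4 list genes per list and comparison with the largest change past 1.5-fold, and the 5 genes nearest to Cdx2. Rspo3, Lgr5 and Axin2 were named as checks. The other list and marker genes named, and the genes beside Cdx2, were chosen after their values were seen. The members and lists were chosen with earlier results of these data known. Alternatives concerned the background, the normalization, the source of the ratios, the filter, the probes, the fold threshold and single arrays, and keeping outlier spots was added after seeing the data. Promoter letters were read from RefSeq with Python 3.11.15.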

Additional observations from a re-analysis of the deposited data

How the results depend on the processing

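Cdx2 was past 1.5-fold higher in Rspo3 KO, and Klf4 lower in Axin2+ cells, under every alternative tried. Median centring and a 2-fold threshold each left 1 member (Cdx2) in the colon and 1 (Klf4) in the sorted cells. Single colon arrays left between 2 and 3 members past 1.5-fold, the third being Cdx1 in pair 2, and single sorted-cell arrays 2. Of the means of single members, 22 values under settings that keep both arrays moved by more than the SD of the 2 arrays and 128 did not, and no called value changed sign. The cause was not tested.

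Genes past 1.5-fold in the colon numbered 656, but 352 with all spots in the background fit, 1450 with the software's log ratios or the series' table, 177 at 2-fold, and between 1534 and 2378 on single arrays. Among sorted cells 2348 became 5186 with the software's ratios or the series' table, 1092 with median centring and 671 at 2-fold. Genes called by limma in the colon numbered 43, but 65 without background correction, 122 with an offset of 16, 118 with the software's ratios or the series' table, 6 with median centring, 5 with the mean over probes, 1 with all spots in the background fit, and 0 without a filter (1194 at an unadjusted p under 0.05). Single arrays allow no limma test.

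List counts are small. In the colon, CDX2 targets past 1.5-fold numbered 1, but 0 at 2-fold, 2 with outlier spots kept and between 0 and 2 on single arrays. HNF4 targets (2) numbered 1 with median centring and 0 at 2-fold or with all spots in the background fit. Other epithelial factors (2) numbered 1 at 2-fold or with all spots in the background fit, and between 5 and 7 on single arrays. Relatives of the members (0) numbered 1 with an offset of 16, 3 with the software's ratios or the series' table and 3 on either single array. Stomach and Hox genes (0 each) numbered 1 each with the software's ratios or the series' table, and Hox genes 1 with an offset of 16. For sorted cells, median centring gave 2 CDX2 targets, 1 other factor and 0 relatives, and 2-fold gave 1 other factor, 0 relatives and 2 Hox genes. Single arrays gave between 3 and 6 other factors. Stomach genes numbered 1 with an offset of 16 and 4 with the software's ratios or the series' table, where Hox genes numbered 7. The colon test is paired by array, since each ratio is a difference within 1 array. No paired analysis was possible because, beyond that, the replicate numbers that the 2 experiments share mark unrelated RNA. Probes near background have compressed ratios at the offset used.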
